A study of Homo sapiens with 18 samples.

Results

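The regions described here are 3719 places of the HCT116 genome. At each, all 6 DRIP lists of the series, from untreated and camptothecin-treated cells, carried a peak. No RNase H filter was applied to these peaks. DRIP-seq pulls down restriction-digested genomic DNA with S9.6, an antibody that binds DNA-RNA hybrids, and a peak is an interval in which the pulled-down DNA exceeded the input. Peaks that met a peak of the other replicate by 1 bp or more were joined within each treatment, intervals of the 3 treatments that touched were then joined into regions, and of the 28518 resulting regions the 3719 with a peak in all 6 lists (13.04%) were taken. They were thus chosen by the measured peaks themselves, so their presence in every list, and all that follows from it, is a description and not a finding.

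HCT116 is an established line of human epithelial colorectal carcinoma. The groups were untreated cells (NT) and cells given 10 μM camptothecin (CPT), a poison that holds topoisomerase I on the DNA it has cut, lasting 5 or 60 min. Every treatment was done in 2 biological replicates. By the methods, cells were detached, washed and pelleted between the end of CPT and lysis. The times thus name the length of treatment, and the lists show cells some minutes after it. In the study's own assays, topoisomerase I complexes reversed and hybrids became easier to detect over such a recovery. For each of these there was a DRIP library, a control in which RNase H acted on the cut DNA ahead of the antibody, and an input against which the authors called peaks. By the methods of the study, DNA of all groups was cut with the same 5 restriction enzymes, and each replicate was a pool of DRIP samples run in parallel. The DRIP lists held 30314 to 72879 peaks, replicate 2 always the longer list, and since these lists hold no read counts, library depth was not used here. A missing or short peak is a call below threshold in that library, and more cells with a hybrid cannot be told apart from more hybrid per cell.

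R loops form where the nascent RNA pairs again with its template strand and leaves the other DNA strand single. They are known at the starts of genes with G-rich nontemplate strands, over highly transcribed gene bodies and near sites of transcription termination. RNase H degrades the RNA of such hybrids, and topoisomerase I removes the negative supercoils behind RNA polymerase that favour them.

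Because DRIP is made on restriction fragments, the sequences at the ends of the shared peaks come first. They are shown for members in which the stretch covered in all 6 lists ended at a recognition site. All are the plus strand of GRCh37 (hg19), 5′ to 3′, with the recognition site in capitals.
GALNS, left end, Xba I, chr16:88867706-88867735: aacctgtcatgaTCTAGAccatttctatca
GALNS, right end, Hind III, chr16:88894505-88894534: ggaaagttcaggAAGCTTtgcagaaggtga
PFKFB3, left end, Ssp I, chr10:6205246-6205275: aactccatcacgAATATTttatgttccctc
PFKFB3, right end, Eco RI, chr10:6211596-6211625: agtactgcttaaGAATTCggtgatgtatcc
DRAP1, left end, Bsr GI, chr11:65682384-65682413: aaggccaccatgTGTACAagaaagtcacac
DRAP1, right end, Bsr GI, chr11:65690297-65690326: cactggaagacaTGTACAagcctgtagccc
EGR1, left end, Hind III, chr5:137798744-137798773: caagtaaacaaaAAGCTTggctggctgggt
EGR1, right end, Bsr GI, chr5:137804157-137804186: gccctgcaccctTGTACAgtgtctgtgcca

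At PFKFB3, which encodes a regulator of glycolysis, the peak was the stretch between its pair of sites in an intron. It covered 6352 bp in NT replicate 1, 6377 in NT replicate 2, 6352 in both 5-min lists, 6352 in 60-min replicate 1 and 6377 in 60-min replicate 2. The 6 lists thus gave nearly the same interval, whatever the treatment. DRAP1, a transcriptional corepressor gene, was covered over 7917 bp in 5 lists and over 8097 bp in 60-min replicate 2. SLC39A4, a zinc transporter gene on chromosome 8, was covered over 10562 bp in 5 lists and over 10912 bp in 60-min replicate 2. These were the members wider than the median whose covered bp varied least.

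Such fragment-shaped peaks were the clear end of a common pattern. Of the 2771 members with a stretch covered in all 6 lists, 1811 (65.4%) had an end of the longest such stretch within 5 bp of a recognition site and 202 (7.29%) had both ends there. In 181 of these 202 no further site lay between, so the shared stretch was 1 whole restriction fragment. The median shared stretch was 2448 bp with both ends at sites and 459 bp with no end at a site. In 602 members (16.2%) a peak started or ended at the very same base in all 6 lists, and 626 of the 628 such bases (99.7%) lay at a site. Peak edges at sites were also common elsewhere. Over single lists 29.91 to 38.003% of the edges of peaks in members and 25.2 to 34.7% of those elsewhere lay at a site, and after 5 min of CPT in replicate 1 the share was higher outside members. There were 0.457 sites per kb in members and 0.447 in all regions, both far fewer than the 1.95 over the genome.

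**Figure D1:**
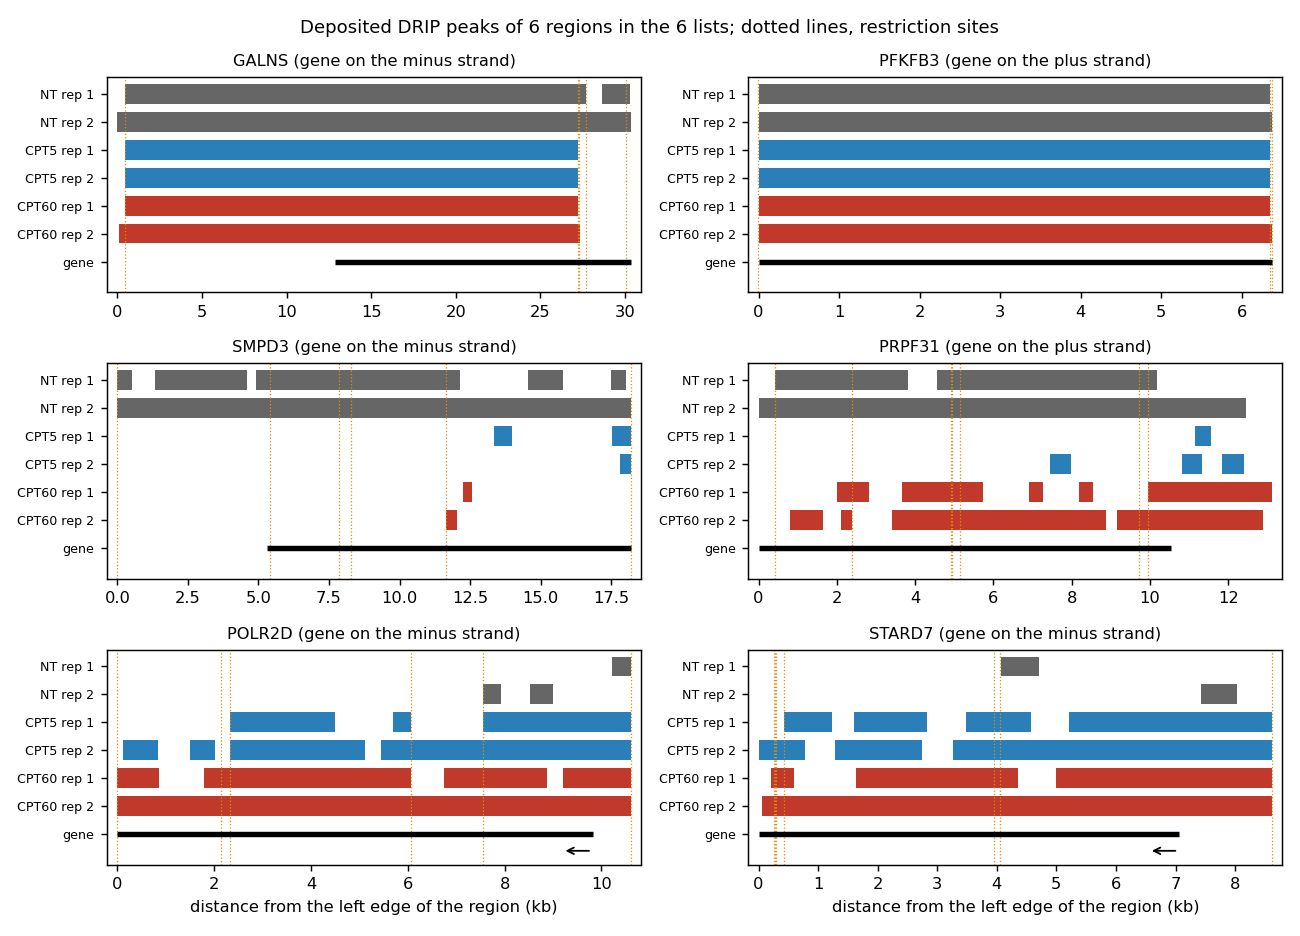
Deposited DRIP peaks of 6 members in each list (bars; grey NT, blue 5 min, red 60 min of CPT) against the distance from the left edge of the region in kb, with the gene of the name in black, an arrow at its start where that lies inside, and restriction sites dotted. Peaks at PFKFB3 covered 6352 or 6377 bp in each list, those at GALNS shared 26803 bp but reached further in both NT lists and 60-min replicate 2, those at SMPD3 and PRPF31 covered less after 5 min and those at POLR2D and STARD7 more.

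Members were wide. Their median width was 5787 bp (quartiles 3170 and 9545 bp, largest 71237 bp), against 1394 bp over all regions, 2925 bp for regions in 5 of 6 lists and 1188 bp for all regions that were not members. Merging over more lists widens a region, so width is partly set by the rule. Together the members spanned 27.6 Mb. A base covered in every list was present in 2771 members (74.5%, 95% Wilson interval 73.1 to 75.9, counting error only), with a median of 660 such bp. In the other 948 members each list had a peak, but no base was shared by all of them. The strongest peaks of the 6 lists lay a median of 3465 bp apart at their summits, and within 500 bp in 513 members (13.8%).

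The longest stretches shared by all lists lay at GALNS, PLEC, SLC16A3, MAP2K7 and FASN. At GALNS, which encodes a lysosomal sulfatase, 26803 bp from 88867719 to 88894521 of chromosome 16 were covered in all 6 lists, in a region that overlapped 3 protein-coding genes and held the end of GALNS but not its start. Covered bp there were 28907 and 30347 in NT, 26803 in both 5-min lists, and 26803 and 27230 at 60 min. The next longest were 20523 bp within PLEC (plectin, which links cytoskeletal filaments), 18153 bp at SLC16A3 (a lactate transporter), 16742 bp at MAP2K7 (a kinase of the JNK pathway) and 15627 bp at FASN (fatty acid synthase). At MAP2K7 the lists were nearly level, with 17068 and 18341 bp in NT, 16742 and 18631 bp at 5 min and 16742 and 18024 bp at 60 min. At FASN the NT lists, with 30998 and 35550 bp, lay above the 5-min lists, with 18929 and 27803 bp, and above the 60-min lists, with 20295 and 28671 bp.

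Over all members, the median covered bp per region (the bp of the list's peaks inside it) was 2067 in NT replicate 1 and 3916 in NT replicate 2. After 5 min of CPT it was 1415 and 3658 bp, and after 60 min 2932 and 5114 bp. Each 5-min value was the lowest and each 60-min value the highest of its replicate number, but the treatments overlapped and replicate 2 was higher in all of them. On the log2 scale the mean difference from NT was -0.32 at 5 min (-0.55 and -0.10 in the replicates) and 0.44 at 60 min (0.50 and 0.39), against an SD of 0.65 between the NT libraries. Two-sided exact permutation tests gave p = 0.667 for each, where 2 libraries against 2 cannot go below 0.333. The direction hung on single libraries. Without NT replicate 2 the 5-min difference became 0.26, without 5-min replicate 1 it became 0.19, and without 60-min replicate 2 the 60-min difference became -0.052. As a share of all bp that a list covered, members held 49.3 and 36.9% in NT, 36.3 and 38.5% at 5 min and 45.3 and 28.7% at 60 min, and on that scale the 60-min difference was -0.24 in place of 0.44.

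Members differed by where they lay in genes. By the protein-coding genes of GENCODE, 939 held a transcription start site (TSS) and no end site (TES), 335 a TES and no TSS, 681 both, 1255 lay within genes and 509 outside them. A TSS lay in 43.6% of members (95% Wilson interval 42.0 to 45.2) and in 13.5% of all regions. A TES lay in 27.3% (25.9 to 28.8) and in 7.71%, and wider regions hold more of both. Starts on both strands, as at divergent gene pairs, lay in 322 members (8.66%), against 2.11% of all regions. The 509 members outside protein-coding genes lay a median of 40110 bp from the nearest such gene, 187 of them in a lncRNA. Altogether 3981 of 20163 protein-coding genes (19.7%) overlapped a member, and 704 lay wholly inside one.

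Members at gene ends covered fewer bp in both 5-min libraries than in either NT library, which members at gene starts did not. With a TES only, the median covered bp was 4928 and 7122 in NT, 1401 and 4686 after 5 min, and 4136 and 6759 after 60 min. Both 5-min libraries lay below both NT libraries, with a log2 difference of -1.21 (-1.81 and -0.60 in the replicates) and p = 0.333 in the exact permutation test, the smallest possible. With a TSS only, it was 1897 and 3653 bp in NT, 1755 and 4051 bp after 5 min, and 3170 and 5362 bp after 60 min. The difference was 0.018 at 5 min and 0.65 at 60 min, and the libraries of the treatments overlapped at both times.

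**Figure D2:**
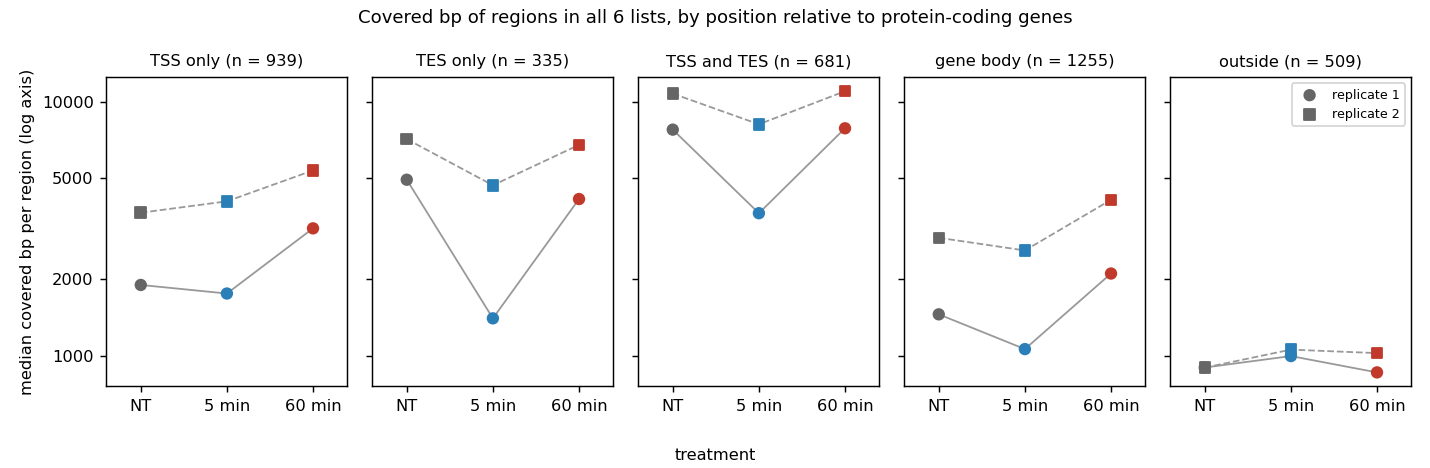
Median covered bp per region in each DRIP list (log axis) by treatment, for members split by the TSS and TES they hold. Circles and solid lines are replicate 1, squares and dashed lines replicate 2. In the TES only panel both 5-min values, 1401 and 4686 bp, lie below both NT values.

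The gap between the 2 kinds of region was taken as 1 number per library. A factor common to all covered bp of a library cancels in it, but depth acts on peak calls in other ways, and its part was not tested. In NT the TSS only members covered less than the TES only members, with log2 differences of median covered bp of -1.38 and -0.96. The gap was 0.33 and -0.21 after 5 min and -0.38 and -0.33 after 60 min. All 4 treated libraries lay above both NT libraries. The change from NT was 1.23 at 5 min (1.70 and 0.75 in the replicates, NT SD 0.29) and 0.81 at 60 min (0.99 and 0.63). Each gave p = 0.333 in the exact permutation test, the smallest that 2 against 2 allow. Under 11 alternatives, those with 1 library left out among them, the change lay between 1.04 and 1.48 at 5 min and between 0.68 and 1.27 at 60 min. Both ends at 5 min came from leaving out a 5-min library. With all libraries kept the change lay between 1.12 and 1.24 at 5 min and between 0.72 and 1.27 at 60 min. The highest value at 60 min came with peaks up to 1000 bp apart merged.

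Members with both a TSS and a TES, the widest kind with a median of 12247 bp, had 7763 and 10764 covered bp in NT, 3637 and 8149 at 5 min, and 7858 and 11002 at 60 min. Their 5-min and NT libraries overlapped, with a log2 difference of -0.75 and p = 0.667 in the exact permutation test. Members within genes had 1453 and 2910 bp in NT, 1060 and 2594 at 5 min and 2104 and 4106 at 60 min. Members outside genes were the even ones, with 897 and 896 bp in NT, 995 and 1055 bp at 5 min, and 858 and 1022 bp at 60 min. Both of their 5-min libraries lay above NT, by 0.19 on the log2 scale (p = 0.333 in the exact permutation test, the smallest possible).

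In the 612 protein-coding genes of 2000 bp or more that lay wholly inside members, the lower 5-min coverage of each replicate number ran over the whole gene. The first 10% of these genes was covered to 67.4% and 92.2% in NT and to 38.02% and 76.1% at 5 min. The last 10% was covered to 75.3% and 90.01% in NT and to 36.6% and 72.9% at 5 min. At 60 min the first 10% stood at 62.6% and 89.5% and the last at 69.5% and 92.2%. These genes were short, with a median of 4836 bp over the 704 against 27219 bp over all protein-coding genes.

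Around single gene starts and ends the shapes differed. Each start or end was taken because it lay inside a member, so coverage beside it is partly set by that choice. At 1135 starts in TSS only members, the highest coverage lay in a bin of 100 bp next to the TSS in all 6 lists, tied in 60-min replicate 1 with a bin further downstream. It reached 46.7% and 80.2% of genes in NT, 44.5% and 81.7% at 5 min and 61.7% and 91.4% at 60 min. From 2 to 5 kb downstream of the TSS coverage was 21.3% and 36.2% in NT and 22.7% and 43.8% at 5 min. At 60 min it was 36.4% and 70.1%. Each CPT list thus lay above the NT list of its number, though the 5-min and NT lists overlapped and no label pairs numbers. In the first 2 kb downstream the 5-min lists went both ways, with 34.1% and 74.1% against 41.6% and 71.4% in NT. From 5 to 2 kb upstream coverage was 11.4% and 22.2% in NT and 9.78% and 20.047% at 5 min. At 60 min it was 16.7% and 39.025% there, so by number the 60-min lists were higher on both sides of the start. At 465 ends in TES only members, the last 2 kb before the TES were covered to 60.4% and 80.7% in NT, 23.6% and 56.3% at 5 min, and 46.8% and 72.7% at 60 min. From 2 to 5 kb downstream of the TES the values were 37.5% and 57.4%, then 14.5% and 36.5%, then 33.9% and 56.9%.

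**Figure D3:**
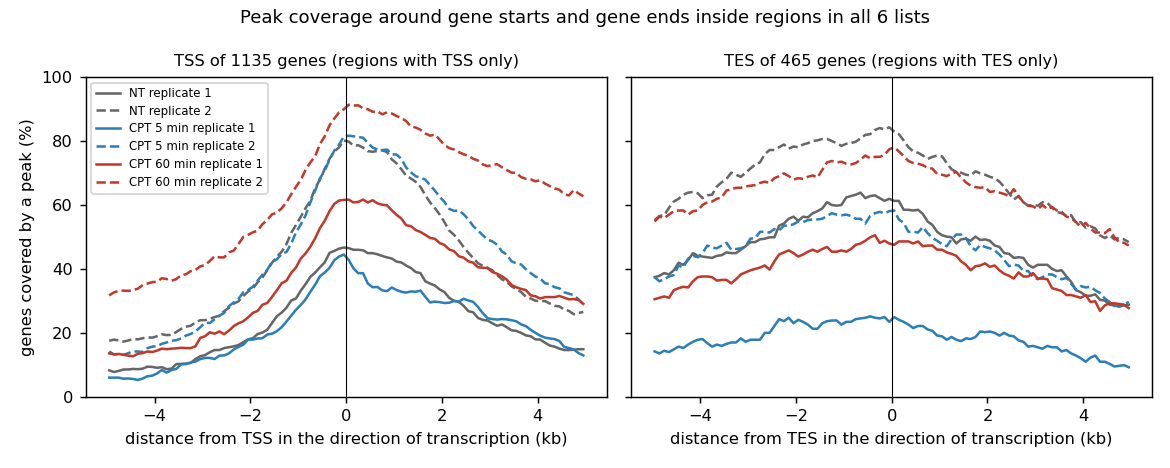
Share of genes covered by a peak (%) against the distance from the TSS (left, 1135 genes) or TES (right, 465 genes) in kb, 1 line per DRIP list (solid replicate 1, dashed replicate 2). Coverage was highest beside the TSS in all lists (tied with a bin further downstream in 60-min replicate 1), and at the TES the 5-min lists, with highest values of 25.2% and 58.3%, lay below the NT lists, with 63.9% and 84.3%. The genes were taken for a TSS or TES inside a member, which partly sets the coverage there.

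Per region, the libraries of 2 treatments often did not overlap. At 5 min against NT, both CPT libraries covered less than both NT libraries in 995 members (26.8%), where the background over all 28518 regions was 24.8%, and more in 508 (13.7%, background 20.3%). At 60 min against NT, 503 were lower (13.5%, background 21%) and 957 higher (25.7%, background 42.7%). From 5 to 60 min, 202 were lower (5.43%, background 11.8%) and 1105 higher (29.7%, background 36.8%). A member had to have a peak in every list and could not fall to 0, so these shares are partly set by the rule. Within the members the lower calls at 5 min were 168 of 335 TES only (50.1%) and 303 of 681 TSS and TES (44.5%). They were 336 of 1255 within genes (26.8%), 128 of 939 TSS only (13.6%) and 60 of 509 outside genes (11.8%). The higher calls were 22, 37, 178, 153 and 118 in the same order. The background was not taken by class, so whether these shares are particular to members was not tested.

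limma, fitted on log2(covered bp + 100) over all 28518 regions with Benjamini-Hochberg adjustment, called few members. At 5 min 8 members were lower (background 8.69% of regions) and 18 higher (6.45%). At 60 min 18 were lower (9.73%) and 63 higher (20.8%). From 5 to 60 min none was lower (4.97%) and 21 were higher (16%), with 11 lower and 129 higher at an unadjusted p under 0.05. Regions with no peak in a treatment fill the background and are barred from the members, so nothing is read from the lower shares. The 63 higher calls at 60 min comprised 25 within genes, 20 at a TSS only, 7 at a TES only, 6 with both and 5 outside genes. The differences hung on single libraries. At 5 min the median log2 difference of members was -0.27, but -0.58 without NT replicate 1, 0.082 without 5-min replicate 1 and -0.66 without 5-min replicate 2. At 60 min it was 0.17, but -0.065 without NT replicate 1, 0.43 without 60-min replicate 1 and -0.0071 without 60-min replicate 2. From 5 to 60 min it was 0.47, but 0.028 without 5-min replicate 1 and 0.93 without 5-min replicate 2. Centring each library on its mean over all regions moved the median 60-min difference of all regions from 1.07 to 0.32. Members then had 394 lower and 86 higher calls at 5 min, where limma called 4826 lower and 3985 higher of all 28518 regions. At 60 min members had 476 lower and 48 higher calls, where all regions had 5602 lower and 6816 higher.

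The 3 members with the largest loss at 5 min among those limma called all held a TES and no TSS. So did SH3D19, one of the 3 with the largest gain described below. Of the 335 TES only members, limma called 4 lower and 2 higher at 5 min, where the background over all regions was 8.69% and 6.45%. The other lower calls were 3 within genes and 1 with both a TSS and a TES. These are too few to read a pattern by class. At SMPD3, which encodes a neutral sphingomyelinase, the region chr16:68386912-68405113 had 12802 and 18202 covered bp in NT, 1315 and 388 at 5 min, and 332 and 402 at 60 min. All 4 CPT libraries were far below NT, with a log2 difference of -4.21 ± 0.74 (SE, limma adjusted p = 0.0177) at 5 min and -5.04 (limma adjusted p = 0.00534) at 60 min. At PRPF31, a splicing factor of the U4/U6 particle, chr19:54624621-54637742 had 9006 and 12442 bp in NT and 406 and 1593 bp at 5 min, and 6773 and 10328 bp at 60 min. The log2 difference was -3.53 ± 0.73 (SE, limma adjusted p = 0.0319) at 5 min and -0.34 (limma adjusted p = 0.784) at 60 min. At NRARP, a target and regulator of Notch signalling, chr9:140185337-140194297 had 2435 and 7267 bp in NT, 384 and 299 at 5 min, and 7853 and 8961 at 60 min. The log2 difference at 5 min was -3.30 ± 0.70 (SE, limma adjusted p = 0.0350), and all 3 regions had no base covered in every list. The peak of NT replicate 2 spanned the whole SMPD3 region, which favours a loss in that comparison.

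The start and the end of PRPF31 lay in different members. Its start lay in the member chr19:54605521-54624136, named for its neighbour TFPT, 484 bp to the left of the member with its end. This start region is 18616 bp wide, overlaps 4 protein-coding genes and also holds a TES. Its covered bp are thus not those of the PRPF31 start alone. The start region had 11899 and 15617 bp in NT, 14135 and 15512 bp at 5 min, and 16609 and 18616 bp at 60 min. The 5-min libraries of the start region lay between those of NT, while those of the end region lay below both.

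The 3 members with the largest gain at 5 min were wide at 60 min too. At POLR2D, an RNA polymerase II subunit gene, chr2:128605912-128616520 had 384 and 860 bp in NT, 5609 and 9177 bp at 5 min and 8666 and 10609 bp at 60 min. The log2 differences were 3.42 ± 0.59 (SE, limma adjusted p = 0.0162) and 3.83 (limma adjusted p = 0.00629). STARD7, a lipid transfer protein gene, went from 648 and 614 bp to 6551 and 7611 bp and to 6739 and 8572 bp at chr2:96867506-96876128. SH3D19, an adaptor protein gene, went from 428 and 503 bp to 4842 and 6173 bp and to 4787 and 6759 bp at chr4:152021704-152028462. Both rose at 5 min, with limma adjusted p = 0.00758 and 0.0117. The NT peaks at all 3 were short and lay apart in the 2 replicates, so no base of these regions was covered in all lists. As such NT peaks were not joined, the edges of these regions came from the CPT lists alone. That favours a gain against NT, so their limma values describe regions drawn by the CPT peaks and are no independent test.

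Among the largest differences at 60 min, HDLBP, an RNA-binding protein gene, had 6962 and 6972 bp in NT, 1205 and 5465 bp at 5 min, and 389 and 574 bp at 60 min (limma adjusted p = 0.0286). AC010327.2, at chr19:55732713-55743753, had 10174 and 10666 bp in NT, 471 and 3391 bp at 5 min, and 574 and 1125 bp at 60 min, which missed the threshold with a limma adjusted p of 0.0517. CEP192, a centrosome gene, had 390 and 280 bp in NT and 7328 and 10054 bp at 60 min (limma adjusted p = 0.0451), while its 5-min libraries, with 603 and 6665 bp, stood far apart. Its NT peaks also lay apart in the 2 replicates, so CPT lists alone set the edges of this region.

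The gene lists met members to very different degrees. Of 79 cytosolic ribosomal protein genes 61 (77.2%) overlapped a member and 77 overlapped any region, against 19.7% and 54.1% of all protein-coding genes. Of 26 snoRNA host genes, which carry small nucleolar RNAs in their introns, 17 overlapped a member and 23 overlapped any region. Of 40 immediate early genes, which respond fast to stimuli, 26 did, where 37 overlapped any region. Of 25 annotated loci used in R loop work 18 did, where 22 overlapped any region. Of 50 genes taken as silent in colon cells, whose expression here was not measured, 2 did, MBP (myelin basic protein) and TNNT2 (cardiac troponin T), where 10 overlapped any region. Of 57 replication-dependent histone genes 3 did, H1-2, H1-4 and H2BC5, where 27 overlapped any region. Gene length, clusters and list choice enter these counts.

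Ribosomal protein members were wider in each CPT library than in the NT library of its number. The 69 members on these genes had a median of 3419 and 5059 covered bp in NT, 4842 and 7620 at 5 min and 6601 and 9164 at 60 min. The log2 differences were 0.55 and 0.90 against -0.32 and 0.44 over all members, and no test was made over the list. The 28 members on immediate early genes had 4262 and 6232 bp in NT, 3970 and 6704 bp at 5 min and 6474 and 8751 bp at 60 min. The 19 members on snoRNA host genes had 5250 and 7763 bp, then 5677 and 8198 bp, then 8136 and 9411 bp.

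Among the list members, RPS16 (chr19:39916353-39930372) had 8832 and 11293 bp in NT, 8832 and 9603 at 5 min and 10322 and 12818 at 60 min, with 8832 bp shared by all lists. RPLP2 (chr11:804550-871045, a region of 66496 bp over 8 protein-coding genes) had 53166 and 64167 bp in NT, 20574 and 46810 bp at 5 min and 37444 and 57957 bp at 60 min. RPL8 had 9393 and 14003 bp in NT, 10206 and 14333 at 5 min and 11558 and 16557 at 60 min. EGR1, a transcription factor gene induced within minutes of many stimuli, was covered over 5417 bp in both NT lists, 5870 and 5920 bp at 5 min, and 6379 and 8181 bp at 60 min. The NT peak of EGR1 was the fragment between the Hind III and Bsr GI sites shown above, and each CPT list reached beyond it. NR4A1 and CSRNP1, further immediate early genes, shared 6586 and 4133 bp over all lists. H1-4 and H2BC5 shared 1 member of 2770 bp, with 2234 bp in 4 lists and 2770 and 2432 bp in the replicate 2 lists of NT and 5 min. None of these list members passed limma at 5 or 60 min, at adjusted p of 0.313 or above.

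The composition of members was G- and C-rich. Their median GC content was 53.3% (quartiles 48.3 and 57.6), against 51.4% in regions of 5 lists and 49.0% in all regions. It was highest with both a TSS and a TES (56.8%) and lowest outside genes (45.1%). The median ratio of observed to expected CpG was 0.374 in members and 0.300 in all regions, and 0.520 in TSS only members. At least 4 runs of GGG with gaps of 1 to 7 bases, on either strand, the pattern of G quadruplex-forming sequence, occurred in 74.7% of members and 35.8% of all regions. Per kb, which takes out width, there were 0.738 such motifs in members, 0.600 in regions of 5 lists and 0.555 over all regions.

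**Figure D4:**
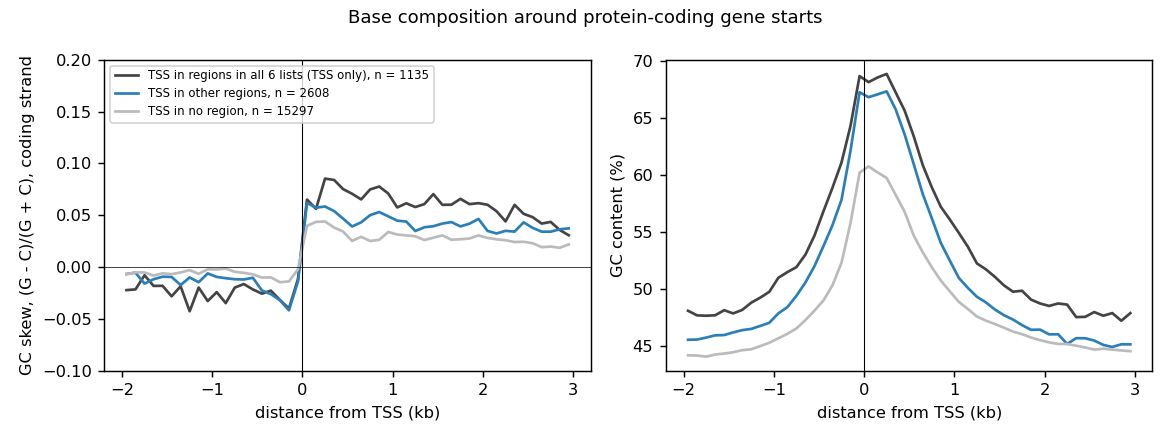
GC skew on the coding strand (left) and GC content in % (right) against the distance from the TSS in kb, in bins of 100 bp, for protein-coding starts in TSS only members (n = 1135), in other regions (n = 2608) and in no region (n = 15297). In the first 1 kb downstream the skew was 0.0726, 0.0516 and 0.0344.

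GC skew, the excess of G over C on the coding strand, marks starts at which the RNA is G-rich. In the first 1 kb downstream of the starts in TSS only members it was 0.0726, against 0.0516 at starts in other regions and 0.0344 at starts in no region. From 1 to 3 kb it was 0.0546, 0.0388 and 0.0261, and upstream it was negative in all 3 sets, at -0.0248, -0.0196 and -0.00724. GC content in the first 1 kb was 63.5%, 61.2% and 55.6%.

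By chromosome, members made up 6.82% of the regions of chromosome 18 and 22.6% of those of chromosome 19, which held 550. They also ranked high within their lists. The median percentile of a member's strongest peak by fold enrichment within its list was 79.2 to 94.3 over the 6 lists, and the lowest of the 6 percentiles had a median of 52.6. This lowest value was reached in 5-min replicate 1 in 37.6% of members and in NT replicate 1 in 26.7%. In 427 members (11.5%) a peak of 1 list stood below the 10th percentile of that list.

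The 5 members strongest in their weakest list lay at chromosome ends, and 3 of their summit sequences are shown for their place there. Each is 120 bases around the middle summit, plus strand of GRCh37, with runs of at least 3 G or 3 C in capitals.
19q end, chr19:59117862-59117981: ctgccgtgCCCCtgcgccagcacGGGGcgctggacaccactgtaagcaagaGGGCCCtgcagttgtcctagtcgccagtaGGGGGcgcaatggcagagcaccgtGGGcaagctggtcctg
2p end, chr2:11920-12039: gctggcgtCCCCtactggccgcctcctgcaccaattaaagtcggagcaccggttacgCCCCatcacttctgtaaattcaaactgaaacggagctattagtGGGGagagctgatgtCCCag
21q end, chr21:48119410-48119529: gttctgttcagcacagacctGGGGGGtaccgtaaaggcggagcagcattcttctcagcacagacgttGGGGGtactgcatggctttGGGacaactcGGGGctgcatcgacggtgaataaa

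The number of such runs was 6, 4 and 4, near the median of 4 in windows of this length over all members and of 3 over all regions, so G and C runs did not set these windows apart. The members were chr19:59116640-59118986, chr9:10001-16130 at WASHC1, chr11:134944501-134946516 in LINC02684, chr2:10069-12553 and chr21:48117172-48119896. In all, 6 members lay within 20 kb of the first or last assembled base of a chromosome, and 4 of them held at least 4 telomere repeats (TTAGGG) in a row on either strand, against 1 of all other regions. Covered bp in these 6 had medians of 1987 and 2326 bp in NT, 1772 and 1986 bp at 5 min, and 2100 and 2112 bp at 60 min. At chr19:59116640-59118986 they were 1946 and 2306 bp in NT, 1551 and 1530 bp at 5 min, and 1946 and 2160 bp at 60 min. Chromosome ends share near-identical copies, so reads there cannot be placed with certainty. Of the 6, 5 also met a peak in at least 5 of the 6 RNase H lists, as did 142 members in all (3.82%).

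The RNase H lists took no part in the choice of the regions. By its methods, the study compared DRIP with RNase H libraries and kept the regions that passed as R loops. That step was not made here, so members are DRIP peaks that need not all be hybrids. A peak that remains after RNase H is pulled-down DNA that the digestion did not remove. In NT, 1.59% and 36.5% of members met an RNase H peak, against 0.206% and 9.66% of all other regions. At 5 min it was 11.5% and 87.6% against 1.71% and 36.7%, and at 60 min 9.36% and 95.5% against 1.80% and 60.8%. Members were met more often in 6 of 6 lists, by a mean of 21.8 ± 18.99 percentage points (SD, n = 6), with p = 0.0312 in the two-sided exact sign-flip permutation test, the smallest that 6 libraries allow. Wider regions meet more peaks. The share of bp covered was also higher in members in 6 of 6 lists, by 1.62 to 4.70 times, with a mean difference of 8.97 points and the same p. Members were chosen for DRIP peaks in every list, and these peaks ranked higher. By the methods, the RNase H libraries came from the same digested DNA as the DRIP libraries. A higher RNase H share in members was thus favoured in advance, so the p-values of this comparison cannot test for more than that choice. Their median percentiles were 79.2 to 94.3, against 53.6 to 71.6 in other regions. The parts of width and of peak strength were not tested. The lists were of very unequal length, from 473 to 67188 peaks. With each reduced to the 473 peaks of highest −log10 p, the mean difference was 4.46 points, with the same p. In the full lists, each replicate 1 list met fewer members than the replicate 2 list of its treatment. By number of lists, 77 members (2.07%) met none of the 6, 1779 met 2 and 36 met all. The part that hybrids left by incomplete digestion play in these shares was not tested.

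**Figure D5:**
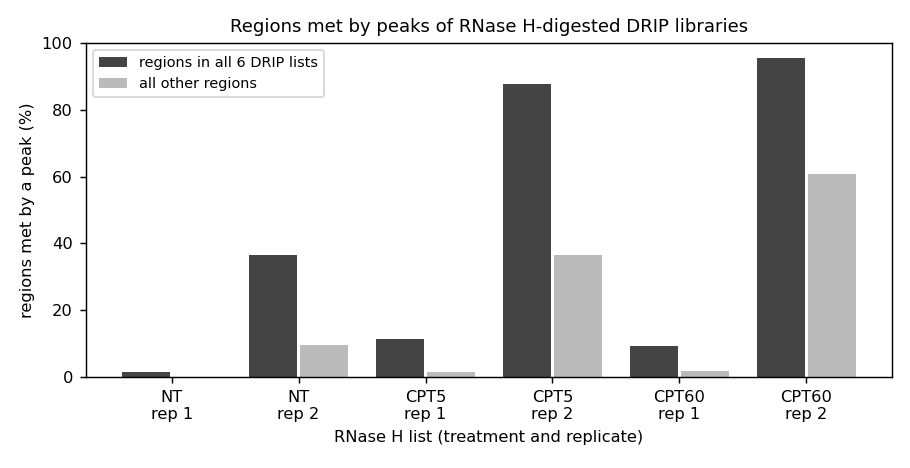
Share of regions (%) met by a peak of each RNase H list, for the 3719 members (dark bars) and the 24799 other regions (light bars). Members were met more often in each list, from 1.59% against 0.206% in NT replicate 1 to 95.5% against 60.8% in 60-min replicate 2.

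Just outside the rule stood 3779 regions with a peak in 5 of the 6 lists. The missing list was 5-min replicate 1 in 1596 of them (42.2%) and NT replicate 1 in 1152 (30.5%), the 2 shortest lists of the set. A TSS lay in 23.4% and a TES in 12.1% of them, and the RNase H lists met between 0.529% and 85.2%.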

How the data were processed

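DRIP-seq of HCT116 cells was analysed from the peak lists that the authors deposited, 1 per DRIP and RNase H library, on hg19. By the methods and the submitters' processing notes, reads were trimmed with cutadapt, aligned with BWA and called with MACS2 against the input, replicate by replicate. The deposited lists give each peak's fold enrichment (a ratio over background), −log10 p and −log10 q values, an integer score and the position of the summit. Genes were taken from GENCODE lifted to GRCh37. The members and gene lists were chosen with earlier results of these data known. Membership needed a peak in all 6 lists inside the region. Replicates met each other in all 3 treatments in 3370 of the 3719 members, and the remaining 349 were kept.

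Covered bp is the length of a list's peaks inside a region, and class medians were compared as log2 with two-sided exact permutation tests. limma 3.58.1 in R 4.3.3 tested log2(covered bp + 100) over all regions, with Benjamini-Hochberg adjustment at 0.05. RNase H lists were compared by an exact sign-flip test over 6 libraries. Python 3.11.15, NumPy 2.4.6, pandas 2.3.3 and SciPy 1.17.1 were used, and the steps were tested on simulated data. The named members were the 5 strongest in their weakest list by percentile of fold enrichment, the 5 with the longest stretch in all lists, the 3 with the largest differences each way at 5 and at 60 min, the 3 most even among members wider than the median, and up to 3 of each gene list. A member that this rule named is not reported here. Peak lists hold no depth, so no interval for a peak was made, and intervals of shares cover counting error only.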

Additional observations from a re-analysis of the deposited data

How the results depend on the processing

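Of 148 recomputed values, 112 counted as the same, 25 moved, 6 were weaker and 5 turned direction. Counts were the same within a set factor, so 2547 and 5318 members against 3719 both passed. Shares were the same within their interval, and differences if their direction and their call at p under 0.05 held. Permutation tests of 2 libraries against 2 cannot go below 0.333, so their call could not change and only direction entered. As a share of each list's bp, the change of member coverage was -0.24 at 60 min against NT and -0.052 from 5 to 60 min. Leaving out 1 replicate gave -0.99 to 0.26 for the 5-min change, with 0.19 without 5-min replicate 1, and -0.052 to 1.00 for the 60-min change. Members numbered 2547 at −log10 q of at least 3, 3015 with lists of equal length, and 3826 to 5318 with 1 list left out. The share with a base in all lists was 79.2%, 76.0% and 68.6% at the q limit, equal length and a merge distance of 1000 bp, and 77.2 to 79.6% with 1 list left out. A TSS lay in 50.2%, 50.05%, 54.2% and, with all gene types, 51.6%, and a TES in 33.1%, 30.9%, 34.7% and 36.7%. Peak edges at sites made up 33.5%, and 37.2%, 36.4%, 43.4% and, with a tolerance of 20 bp, 33.9% under the alternatives. limma called 4318 regions at 5 min, 8811 after centring and 2563 at the q limit, 8708 at 60 min (5667 to 10697 with 1 replicate left out), and 5967 from 5 to 60 min, or 3697 at the q limit. Without 1 library the RNase H difference was 16.04 to 25.9 points with an exact p of 0.0625, the smallest 5 libraries allow, and with RNase H lists of equal length it was 4.46 points. The causes were not tested.

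Replicate numbers are shared over treatments, but no label says that they pair samples. With the replicate block, limma called 4774, 10238 and 6367 regions, of them 114 members at 5 min (64 lower, 50 higher), 280 at 60 min (77 lower, 203 higher) and 104 from 5 to 60 min (4 lower, 100 higher). Without the block the members called were 8 lower and 18 higher, 18 lower and 63 higher, and 21 higher. Same-numbered deviations correlated at 0.17 to 0.26. Restricted to the 3370 members whose replicates met in each treatment, an alternative chosen after seeing the data, the changes were -0.34, 0.41 and 0.75 and the TSS to TES gap moved by 1.17 and 0.75.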
